A study of Rattus norvegicus with 4 samples.

Results

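The 73 genes described here encode proteins of the mitochondrial ribosome, the particle that translates the few messenger RNAs made inside mitochondria. They were taken from rat ovary arrays as every gene whose single symbol in the platform annotation begins with Mrpl (large subunit) or Mrps (small subunit) followed by a digit. Such symbols covered 97 of 31099 probe sets, 91 of them above the filter on dim probe sets and 6 below it (intensities of 0.7 to 32.4 on all arrays). All 73 genes kept at least 1 tested probe set, out of 10622 genes tested. Each gene is represented by its brightest tested probe set, and its other probe sets are given separately.

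Whole ovaries of Rattus norvegicus pups of postnatal day 4, an age at which most follicles are primordial, were cultured for 10 days either with 50 ng/mL anti-Müllerian hormone (AMH) in the medium or with no treatment (control). Both groups shared the same serum-free medium with bovine serum albumin, Albumax, transferrin, insulin and ascorbic acid. RNA of about 10 ovaries was pooled per sample, 2 independent pools per group were each hybridised to 1 Affymetrix array, and no single animal can therefore be followed. The study asks, by its title, how AMH acts on ovarian transcripts as it keeps primordial follicles from becoming primary ones.

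Mitochondrial ribosomes build only subunits of the respiratory chain and ATP synthase, while their own proteins are all encoded in the nucleus, made in the cytosol and imported. Some of these proteins have counterparts in bacterial ribosomes and others are found only in mitochondria. Oocytes carry very many mitochondria, and in humans inherited loss of MRPS22 function leads to failure of ovarian development. Whole ovaries hold many cell types, and in such bulk samples fewer cells of a type and less RNA per cell cannot be told apart.

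The AMH and control arrays differed in technical measures as well as in treatment. The ratio of 3′ to 5′ intensity of the GAPDH control probe sets, which grows as the measured RNA gets shorter, stood at 6.56 and 6.37 for the AMH arrays, against 1.17 and 1.27 for the control arrays. For the beta-actin control probe sets the same ratio was 10.7 and 14.4 for AMH, against 3.17 and 4.60 for control. Each of the 2 chip run strings in the sample descriptions held 1 group only, so run and treatment cannot be told apart in any result below. All 6 oocyte and 6 granulosa markers on the array passed the filter on dim probe sets, as did 2 of 4 steroidogenic ones. The summed intensity of the 6 measured oocyte markers was 5804 and 5906 with AMH, against 7642 and 7320 in control, with 4 of the 6 called lower. These were Gdf9 (453.7 and 317.7 with AMH, against 1725 and 1733 in control), Bmp15, Sycp3 and Kit. With AMH, Bmp15 (22.6 and 22.3) and Kit (18.9 and 3.9) lay under 27.8, the level below which probe sets were left out. Zp2 and Zp3, the brightest of the set, were not called (adjusted p = 0.991 and 0.995). Of 6 granulosa markers 2 were called higher (summed intensity 5033 and 3238 with AMH, against 2307 and 1877 in control), and of 2 red blood cell markers 1 was called lower (100.3 and 84.5 with AMH, against 1406 and 1218 in control). The 4 steroidogenic markers, of which Star and Hsd3b1 were tested and not called (adjusted p = 0.202 and 0.093), had a summed intensity of 2265 and 423.7 with AMH, against 376.3 and 271.9 in control, so that AMH replicate 1 stood apart. Of 6 macrophage and leukocyte markers Cd68 was higher and C1qb lower (sums of 434.8 and 878.4 with AMH, against 650.7 and 514.7 in control), and of 4 smooth muscle markers Acta2 was lower (149.6 and 289.1 with AMH, against 333.5 and 248.2 in control). The endothelial, surface epithelial and fat markers held no call, with adjusted p of 0.0601 (Krt8) and above. The summed intensity of the fat markers was 205.9 and 373 with AMH, against 110.6 and 921.6 in control. Control replicate 2 thus stood apart, with Fabp4 at 50.1 and 783.1 in control replicates 1 and 2. The part of the 3′/5′ ratio and of these cell types in the changes below was not tested.

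The mitoribosomal genes moved in both directions, and falls were more frequent and larger than rises. With AMH, 22 of the 73 genes fell (30.1%, where 11.9% of all tested genes were called lower) and 9 rose (12.3%, where 11.1% of all tested genes were called higher). The other 42 were not called. A call means an adjusted p under 0.05 in a limma fit over all 18625 tested probe sets. Each change is a log2 fold change of AMH over control, taken after adding 16 to the intensities, and the value after ± is its limma standard error, from 2 arrays of each group. The called falls ran from -0.63 to -1.82 and 17 of the 22 were at least 2-fold (where 6.05% of all tested genes were called lower and at least 2-fold), while the called rises ran from 0.48 to 1.07 and 1 of the 9 was at least 2-fold (where 2.01% of all tested genes were called higher and at least 2-fold). Over all 73 genes the median change was -0.09, against 0.07 over all tested genes, so that the typical member lay close to 0.

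**Figure D1:**
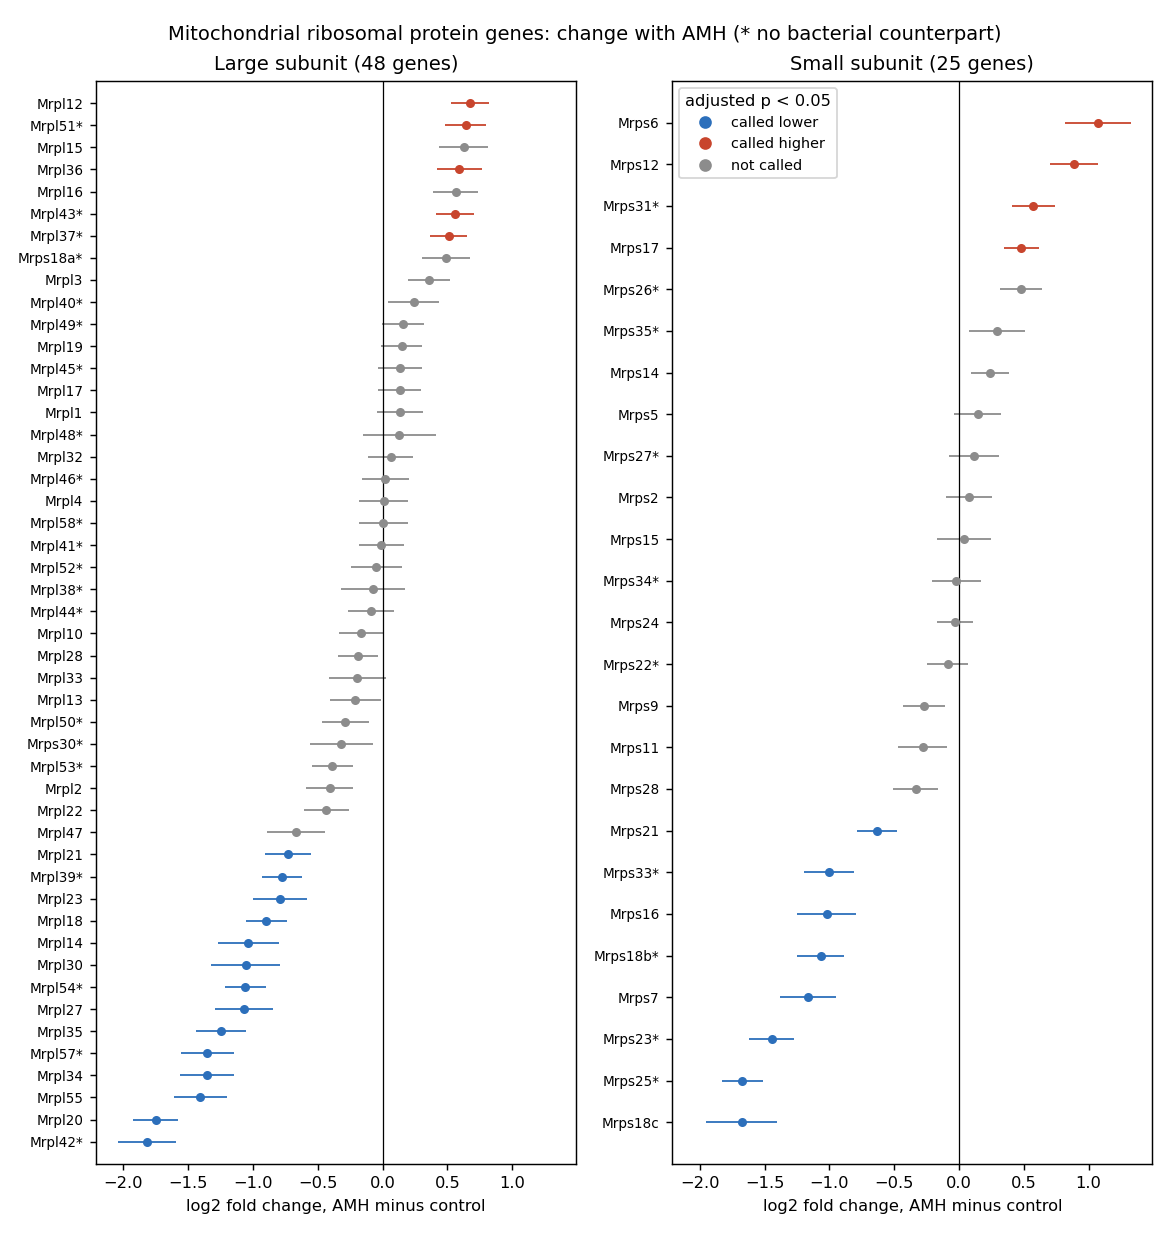
Change of each of the 73 genes with AMH (x axis, log2 fold change, AMH minus control; bars, limma standard error with 2 arrays of each group), split by subunit and coloured by call; an asterisk marks proteins without a bacterial counterpart. Falls reach -1.82 (Mrpl42), rises reach 1.07 (Mrps6), and 42 genes lie between without a call.

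Separation of the 2 groups was about as frequent as among all genes, with more members on the lower side and fewer on the higher. Both AMH arrays were below both control arrays for 32 genes (43.8%, against 28.6% of all tested genes) and above both for 19 (26.0%, against 36%), and the groups overlapped for 22. The count of rises varied more between settings than the count of falls. With median centring 9 members were higher and 19 lower (13.4% and 9.04% of all genes), and with quantile normalization 6 and 22 (11.2% of all genes each way). With arrays scaled to the hybridization controls, which moved the median of all genes to -0.40 and that of the members to -0.56, 29 members were called lower (25.6% of all genes) and 0 higher (0.687% of all genes). A fit without 1 array sets a single array against a pair, and takes the spread from that pair and the prior alone. The AMH pair is the wider one, so calls gained or lost in these fits also follow which pair is left, and they give no order of firmness. In limma fits without 1 control array, 15 and 16 members were lower and 2 and 1 higher (without control replicate 1 and 2), where 5.23% and 6.47% of all genes were lower and 2.22% and 3.94% higher. Without AMH replicate 1 and 2, 23 and 26 were lower and 15 and 8 higher, where 14.1% and 15.3% of all genes were lower and 15.7% and 14.6% higher. Fewer rises were called with no filter (20 lower and 5 higher, where the shares of all genes were 6.89% and 5.28%) and with no intensity trend (19 and 3, where they were 9.89% and 6.39%). Among the 16 alternatives tried, hybridization control scaling alone ended the call of each of the 9 rises, which it moved down like every other gene. Of the 22 falls, 22 kept their call with it, 19 with median centring, 20 with no filter and 19 with no intensity trend. Of the 9 rises 0, 9, 5 and 3 did in the same settings. How many of all called genes kept their call in these settings was not counted.

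In the small subunit 8 of 25 genes fell. Mrps25, a protein without bacterial counterpart, had intensities of 166.2 and 155.4 with AMH, against 545.3 and 548.6 in control (-1.67 ± 0.16, 3.19-fold, adjusted p = 0.00066). Mrps23, another such protein, had 176.1 and 224.9 with AMH, against 579.4 and 560.7 in control (-1.45 ± 0.18, adjusted p = 0.00164). For both genes the AMH arrays lay far below the control arrays, with less distance inside a group than between groups. Mrps7 belongs to the head of the subunit, where its bacterial counterpart organises the ribosomal RNA. It had 157.1 and 248 with AMH, against 462.5 and 464.1 in control (-1.16 ± 0.22, adjusted p = 0.00872). Mrps16 had 156.4 and 255.2 with AMH, against 407.3 and 438 in control (-1.02 ± 0.23, adjusted p = 0.0167). The AMH arrays of Mrps7 and Mrps16 differed from each other more than the control arrays did, but did not reach them. Mrps33 (-1.001 ± 0.19) and Mrps21 (-0.63 ± 0.15) fell as well. Calls were lost for Mrps33 without control replicate 1 (adjusted p = 0.103), for Mrps16 without control replicate 2 (adjusted p = 0.0569) and for Mrps21 without either (0.178 and 0.133).

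The S18 proteins form a family of 3 in mammals, and its members did not move alike. Mrps18c, the closest counterpart of bacterial S18, had 23.7 and 47.1 with AMH, against 160.8 and 129.1 in control (-1.68 ± 0.27, adjusted p = 0.00526). Mrps18b had 117.8 and 104.3 with AMH, against 255.3 and 244.5 in control (-1.07 ± 0.18, adjusted p = 0.00591). Mrps18a, which sits in the large subunit despite its name, had 588.1 and 758.2 with AMH, against 525.4 and 422.2 in control, and was not called (0.49 ± 0.19, adjusted p = 0.0953). It passed without AMH replicate 1 (adjusted p = 0.0184). Mrps30, another large-subunit protein with a small-subunit symbol, was not called (-0.32 ± 0.24) but passed without AMH replicate 2 (-0.67, adjusted p = 0.0242). The lower level of Mrps18c on AMH replicate 1 is under 27.8, the level below which probe sets were left out, so the size of its fall depends on the constant added before taking logarithms.

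In the large subunit 14 of 48 genes fell, 10 of them among the 27 with bacterial counterparts. The steepest fall with 16 added to the intensities was that of Mrpl42, a mitochondrion-specific protein, with 138.7 and 223.7 with AMH, against 719.4 and 611.1 in control (-1.82 ± 0.23, 3.53-fold, adjusted p = 0.0018). With 1 added instead, Mrps18c fell further (-2.07) than Mrpl42 (-1.91). Mrpl20, whose bacterial counterpart is needed early in the assembly of the subunit, had 159.5 and 168.3 with AMH, against 661.1 and 526 in control (-1.75 ± 0.18, adjusted p = 0.000773). In both genes the control arrays stood clear of the AMH arrays by more than any distance inside a group. Mrpl55, the counterpart of bacterial L31, had 126.3 and 184.1 with AMH, against 405.9 and 458.1 in control (-1.41 ± 0.21, adjusted p = 0.00348). Mrpl34, a very small basic protein, had 82.1 and 117 with AMH, against 291.2 and 262.2 in control (-1.36 ± 0.21, adjusted p = 0.00429). Mrpl57 had 122.4 and 90.3 with AMH, against 324 and 266.1 in control (-1.35 ± 0.21, adjusted p = 0.00425). All 3 of these genes had AMH values below each control value by more than the gap between the arrays of a group.

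Mrpl35 had 159.7 and 128.3 with AMH, against 398.5 and 327.8 in control (-1.25 ± 0.19, adjusted p = 0.00429). Mrpl27, whose bacterial counterpart reaches into the site of peptide bond formation, had 254.7 and 418.6 with AMH, against 716.8 and 689 in control (-1.07 ± 0.22, adjusted p = 0.0135). The remaining falls were those of Mrpl54 (-1.06 ± 0.16), Mrpl30 (-1.05 ± 0.27), Mrpl14 (-1.03 ± 0.24), Mrpl18 (-0.90 ± 0.16), Mrpl23 (-0.79 ± 0.21), Mrpl39 (-0.78 ± 0.15) and Mrpl21 (-0.73 ± 0.18). Of these 7, only Mrpl54 kept its call without each single array. The call was lost without control replicate 1 for Mrpl30 (adjusted p = 0.118) and Mrpl23 (0.186), without control replicate 2 for Mrpl18 (0.0505), and without either for Mrpl14 (0.0791 and 0.101), Mrpl39 (0.0933 and 0.0884) and Mrpl21 (0.0957 and 0.198). Without AMH replicate 1 the changes of Mrpl23 and Mrpl30 were -0.51 and -0.66. Mrpl23, Mrpl30 and Mrps21 also lost their call with median centring and with no intensity trend, and Mrpl23 and Mrpl30 with no filter. Mrpl14 had only 36 and 54.7 with AMH, and with 64 added to the intensities its change was -0.66.

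**Figure D2:**
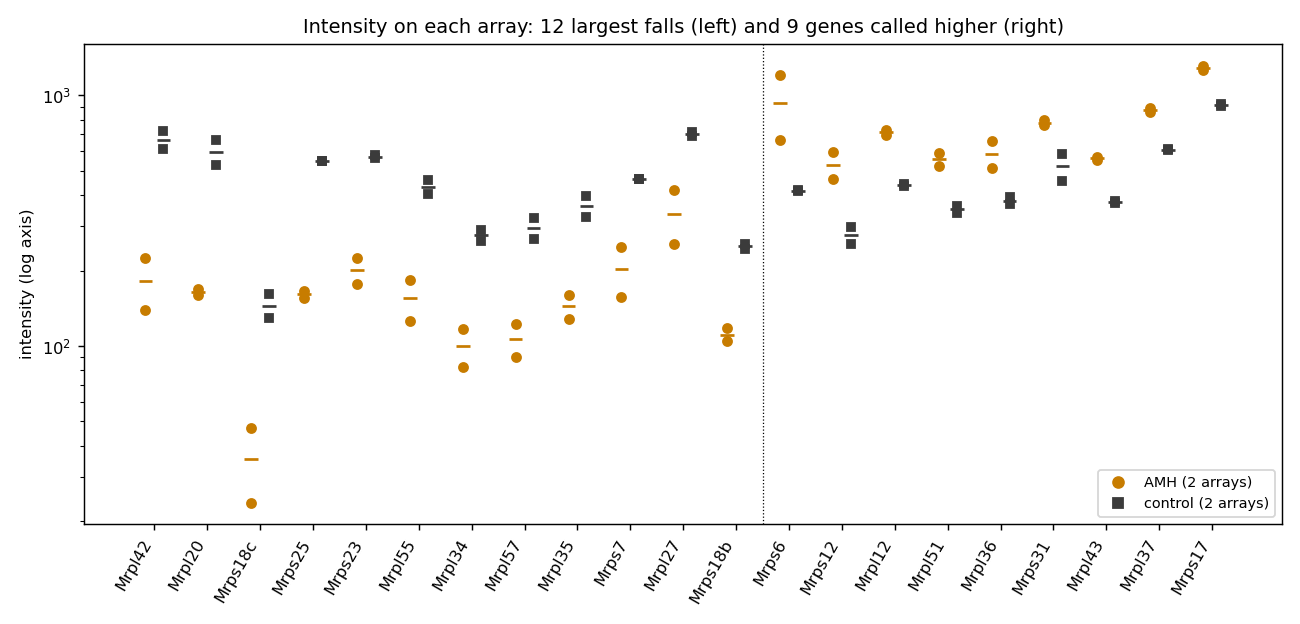
Intensity on each array (y axis, log scale) of the 12 members with the largest falls, left of the dotted line, and the 9 members called higher, right of it; circles are AMH arrays, squares control arrays, short lines the group means (n = 2 each). The 2 groups do not overlap for any of these 21 genes, and the AMH arrays of Mrps6 lie widest apart among the rises (1205 and 664.7).

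The 9 rises had a median of 0.59, against -1.07 for the falls. Mrps6, a platform protein of the small subunit, had 1205 and 664.7 with AMH, against 417.5 and 417.2 in control (1.07 ± 0.25, adjusted p = 0.0205). Its AMH arrays were far apart, and the change was 0.65 without AMH replicate 1 and 1.49 without AMH replicate 2. In bacteria S6 binds S18 as a pair, and here the gene of the S6 counterpart rose while that of the S18 counterpart, Mrps18c, fell. Mrps12, the counterpart of the bacterial protein that monitors decoding, had 462.7 and 595.1 with AMH, against 299 and 255.8 in control (0.89 ± 0.18, adjusted p = 0.0126). Mrpl12, a protein of the stalk that recruits translation factors, had 696 and 728 with AMH, against 444 and 434.5 in control (0.68 ± 0.15, adjusted p = 0.0152). The Mrpl12 arrays of each group were close together, with a gap between groups many times wider.

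The other rises were those of Mrpl51 (0.64 ± 0.16), Mrpl36 (0.59 ± 0.17), Mrps31 (0.58 ± 0.17), Mrpl43 (0.56 ± 0.15), Mrpl37 (0.51 ± 0.14) and Mrps17 (0.48 ± 0.14), with adjusted p from 0.0239 to 0.044. Mrps17 was the brightest member, with 1313 and 1260 with AMH, against 909.9 and 923.1 in control. Each of the 9 lost its call with hybridization control scaling, and the number of alternatives that ended a call ran from 1 of 16 (Mrps6) to 9 of 16 (Mrpl37). Without a control array only Mrps6 kept its call both times. Mrps12 lost it without control replicate 2 (adjusted p = 0.0836) and the other 7 without either (0.121 to 0.391 without control replicate 1 and 0.0757 to 0.241 without control replicate 2). Mrpl36 also lost it without AMH replicate 2 (0.0802). Mrpl15 (0.63 ± 0.19, adjusted p = 0.0505) and Mrpl16 (0.57 ± 0.17, adjusted p = 0.0513) missed the threshold narrowly. In the fit of AMH replicate 2 alone against the control pair both passed (0.00297 and 0.0108), and in that of AMH replicate 1 alone neither did (0.0975 and 0.0996), with a change of 0.37 for Mrpl15.

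Among the members without a call, several were bright and lay close to 0. Mrps24 had 1000 and 1097 with AMH, against 1073 and 1065 in control (-0.03 ± 0.14), so that the AMH arrays bracketed the control arrays. Mrps26, also among the 3 brightest members, had 1100 and 1328 with AMH, against 795.7 and 938.7 in control (0.48 ± 0.16, adjusted p = 0.0714), and passed without AMH replicate 1 (adjusted p = 0.0147). Mrps22, the gene linked to human ovarian failure, had 498 and 526.7 with AMH, against 499.9 and 594.5 in control (-0.09 ± 0.16, adjusted p = 0.734), with overlapping groups. Of the 42 genes without a call, 7 had an unadjusted limma p under 0.05, and the matching share over all tested genes was not counted. Of these, Mrpl15, Mrpl16, Mrps18a and Mrps26 had changes above 0, and Mrpl22, Mrpl47 and Mrpl53 below 0.

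The stalk held calls in both directions and the rim of the exit tunnel 1 call only. In the stalk Mrpl12 rose and Mrpl54 fell (467.9 and 557.1 with AMH, against 1130 and 1033 in control, adjusted p = 0.00366), while Mrpl10, which anchors the stalk (-0.16 ± 0.17), and Mrpl53 (-0.39 ± 0.16) were not called. At the rim of the tunnel through which the new protein leaves, Mrpl23 fell and 4 genes were not called, namely Mrpl47 (-0.67 ± 0.22), Mrpl22 (-0.44 ± 0.17), Mrpl17 (0.13 ± 0.16) and Mrpl45 (0.13 ± 0.17). Mrpl47 passed without AMH replicate 2 (-0.99, adjusted p = 0.00249) and Mrpl22 without AMH replicate 1 (-0.54, adjusted p = 0.0429). By origin, 10 of 27 large-subunit genes with bacterial counterparts fell and 2 rose, and of the 21 mitochondrion-specific ones 4 fell and 3 rose. For the small subunit 4 of 15 genes with bacterial counterparts fell and 3 rose, and of the 10 mitochondrion-specific ones 4 fell and 1 rose. The median change was -0.13 in the large and -0.03 in the small subunit, and the differences between these classes were not tested.

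Other probe sets of the same genes often differed in sign or in call, but were rarely called in opposite directions. Of the 16 genes with several tested probe sets, 12 had such a difference, 7 in sign and 8 in call. Opposite calls were found in 1 gene. The matching share over all genes with several tested probe sets was not counted. Mrpl10, uncalled at its brightest probe set (246.4 and 210.1 with AMH, against 253.7 and 260.3 in control), fell by 2.33 ± 0.26 at the other (6.2 and 14.6 with AMH, against 113.5 and 115.9 in control, adjusted p = 0.00117). Mrpl52 did likewise, with -0.05 ± 0.20 at its brighter probe set and -1.98 ± 0.21 at the other (49.6 and 51.5 with AMH, against 284 and 213.4 in control, adjusted p = 0.000944). The dimmer probe sets separated the groups widely, whereas at the brighter one the groups overlapped for Mrpl52 and lay only a little apart for Mrpl10. Mrpl37 was the only member called in opposite directions. It rose at its brightest probe set (887.6 and 858.6 with AMH, against 606.2 and 609.2 in control) and fell by 1.57 ± 0.27 at another (32.3 and 15.9 with AMH, against 100.3 and 100.3 in control, adjusted p = 0.0063). AMH values of these dimmer probe sets of Mrpl10 and Mrpl37 lie at or under 32.3, near the filter level, so their folds depend on the constant added.

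Dimmer probe sets were also called lower for Mrpl49 (-0.81 ± 0.19, against 0.16 ± 0.16 at the brightest) and Mrps2 (-0.83 ± 0.25, against 0.08 ± 0.18). That of Mrps2 had 20.1 and 20.3 with AMH, against 47.5 and 49.6 in control (adjusted p = 0.0457). Its AMH values lie under the filter level of 27.8, so its fold too depends on the constant added. A second probe set of Mrps18c was not called (-0.47 ± 0.24), nor was that of Mrpl12 (0.65 ± 0.26). Mrpl51 had 4 probe sets, of which 2 were called higher (0.64 and 0.88) and 2 were not called (0.12 and 0.27). Mrps14, Mrps15, Mrps27 and Mrps9 changed sign between probe sets without a call in either. Of the 18 additional tested probe sets, 6 were called lower, 1 higher and 11 not called, where 12.8% of all tested probe sets were lower and 8.67% higher. With each gene at its dimmest tested probe set, an alternative chosen after seeing the data, 26 members were lower (14.8% of all genes) and 6 higher (8.28% of all genes).

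**Figure D3:**
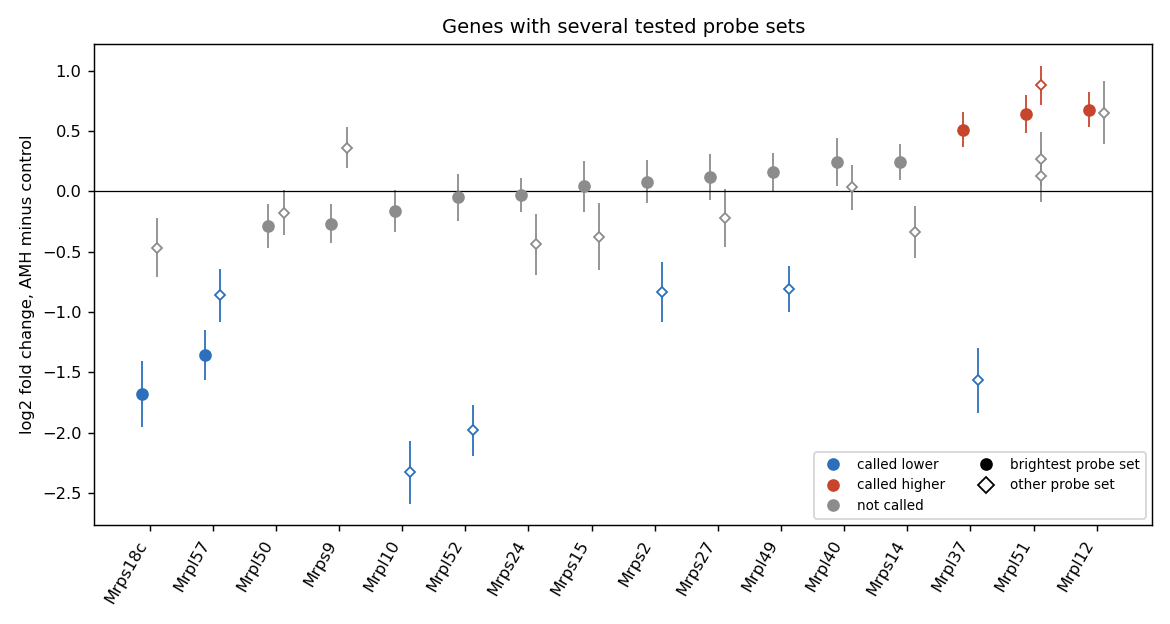
Change with AMH (y axis, log2 fold change, AMH minus control; bars, limma standard error) of every tested probe set of the 16 genes that have several; filled circles are the brightest probe set of a gene, open diamonds its others. The largest distances are those of Mrpl10, Mrpl37 and Mrpl52, whose dimmer probe sets lie at -2.33, -1.57 and -1.98.

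Most members have shorter genes and brighter probe sets than the typical gene. The span of 64 of the 73 was below the median of all genes, and the mean intensity of 64 was above it. Their median span in the RefSeq annotation was 6497 bases (736 to 130608), against 24052 for all tested genes with a known span, and their median of the mean intensity was 378.7, against 178.4. All 9 members that rose were brighter than the members' own median, as were 8 of the 22 that fell and 19 of the 42 not called. How calls over all tested genes divide by brightness was not counted. The standard error also varied with brightness, as between Mrps17 (0.14, the brightest member) and Mrps18c (0.27). Across the 73 genes, which are measured on the same 4 arrays, Pearson's r of the change with log10 span was 0.10 and with the log2 mean intensity 0.31. Spearman's rho of the change with span was 0.04 over the members, against 0.13 over all tested genes with a known span. Of the 36 members with the shorter spans 11 fell and 6 rose, and of the 37 with the longer ones 11 fell and 3 rose. The matching shares over all tested genes were not counted. The AMH arrays differed from each other more than the control arrays did, with an SD of the log2 difference over members of 0.34 for AMH and 0.18 for control. AMH replicate 2 was the higher of its pair for 49 of the 73 genes, by a median of 0.16 on the log2 scale, against -0.01 over all tested genes.

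Further proteins of the particle carry other kinds of symbol. Of 5 such genes, Gadd45gip1, a large-subunit protein, rose (295.3 and 428 with AMH, against 194.2 and 167.1 in control, 0.92 ± 0.21, adjusted p = 0.0185). Aurkaip1, a small-subunit protein, fell (249.2 and 289.1 with AMH, against 399.6 and 491.3 in control, -0.69 ± 0.18, adjusted p = 0.028). Chchd1 (0.03 ± 0.25), Dap3, a GTP-binding protein of the small subunit (0.00 ± 0.20), and Ptcd3 (0.14 ± 0.17) were not called. The 2 changed genes thus moved in opposite directions. Gadd45gip1 lost its call without control replicate 2 (adjusted p = 0.0885), and Aurkaip1 without either control array (0.0784 and 0.239). Gadd45gip1 was not called with hybridization control scaling (0.45, adjusted p = 0.269), nor Aurkaip1 with median centring (0.066), no intensity trend (0.0579) or the gene span trend removed (-0.43, adjusted p = 0.102).

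Genes that serve the mitochondrial ribosome were called in shares not far from the 11.9% lower and 11.1% higher of all tested genes, and no difference from these was tested. Of 15 tested translation factors and their helpers 2 fell (13.3%) and 3 rose (20%). Mtif2, the initiation factor that brings the first tRNA, had 551.4 and 564.2 with AMH, against 292.5 and 272.4 in control (0.94 ± 0.15, adjusted p = 0.00532), with the groups far apart. Malsu1, which acts late in large-subunit assembly (0.79 ± 0.15), and Lrpprc, which stabilises mitochondrial messenger RNAs (0.58 ± 0.16), rose too. Mtrf1, a release factor (-0.96 ± 0.24), and Oxa1l, which inserts new proteins into the inner membrane (-0.76 ± 0.17), fell. With hybridization control scaling the 3 rises were lost (adjusted p of 0.146, 0.325 and 0.755). Calls were lost without control replicate 1 for Mtrf1 (0.215), without either control array for Malsu1 (0.0568 and 0.0924), Lrpprc (0.237 and 0.185) and Oxa1l (0.149 and 0.0625), and for Lrpprc also without AMH replicate 2 (0.0551). Mtrf1 was not called with median centring (0.0504) or no filter (0.0599), nor Lrpprc with no filter (0.0534) or no intensity trend (0.0742).

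Of 18 tested genes for charging mitochondrial tRNAs 3 fell (16.7%) and 1 rose (5.56%). Ears2, for glutamate, had 32.6 and 31.7 with AMH, against 94.3 and 105.6 in control (-1.27 ± 0.22, adjusted p = 0.00674). Kars1, which serves both the cytosol and mitochondria, had 657.7 and 651.6 with AMH, against 1106 and 1035 in control (-0.69 ± 0.14, adjusted p = 0.0121). Vars2 fell (-0.80 ± 0.24) and Yars2 rose (0.57 ± 0.17), both close to the threshold (0.0474 and 0.0465), and Qrsl1 was not called (0.61 ± 0.22). Without either control array the calls of Kars1 (0.141 and 0.0759), Vars2 (0.358 and 0.0773) and Yars2 (0.301 and 0.194) were lost. Those of Vars2 (0.0807) and Yars2 (0.0585) were also lost without AMH replicate 2, and Qrsl1 passed without AMH replicate 1 (0.0459). Vars2 was not called with quantile normalization, median centring, no filter, no intensity trend or the gene span trend removed (0.051 to 0.1001), nor Yars2 with hybridization control scaling (0.766), no filter (0.0667) or no intensity trend (0.071).

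Assembly of the ribosome and processing of mitochondrial RNA gave 4 falls (18.2%) and 2 rises (9.09%) among 22 tested genes. Of the falls, 3 were the genes of mitochondrial RNase P, the complex that cuts tRNAs out of long precursors; they were picked out after their values were seen. Hsd17b10, which is also a dehydrogenase, had 200.7 and 319.4 with AMH, against 1054 and 910.1 in control (-1.88 ± 0.22, adjusted p = 0.0014). Trmt10c, a methyltransferase subunit, had 102.4 and 119.9 with AMH, against 244.2 and 261.7 in control (-1.08 ± 0.18, adjusted p = 0.00602). Prorp, the nuclease subunit, had 189.1 and 174 with AMH, against 340.7 and 350.2 in control (-0.87 ± 0.16, adjusted p = 0.00917). For all 3 subunits both AMH arrays lay below both control arrays. Mterf4, needed for assembly of the ribosome, fell as well (238.6 and 228.8 with AMH, against 786.9 and 794.2 in control, -1.69 ± 0.15, adjusted p = 0.000538). Its relative Mterf3 rose (832.2 and 883.8 with AMH, against 403.9 and 453.3 in control, 0.98 ± 0.15, adjusted p = 0.00445), as did Ngrn (0.57 ± 0.17, adjusted p = 0.0436). Without either control array the calls of Prorp (0.0687 and 0.0684) and Ngrn (0.347 and 0.135) were lost, and both rises were lost with hybridization control scaling (0.117 and 0.768). Ngrn was not called either with quantile normalization (0.0526), no filter (0.0625) or no intensity trend (0.0795).

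Genes for transcription and upkeep of mitochondrial DNA gave 2 falls (13.3%) and 2 rises (13.3%) among 15 tested. Ssbp1, the protein that covers single-stranded mitochondrial DNA, had 302 and 397.7 with AMH, against 1012 and 902.3 in control (-1.42 ± 0.18, adjusted p = 0.00181). Twnk, the helicase of mitochondrial DNA, fell by 0.98 ± 0.25 (adjusted p = 0.0287). Polg2, the accessory subunit of the DNA polymerase (0.77 ± 0.22), and Gabpa, an ETS factor that drives nuclear genes for mitochondria (0.76 ± 0.22), rose with adjusted p of 0.0427 and 0.0447. Calls were lost without control replicate 2 for Twnk (0.233) and without either control array for Polg2 (0.139 and 0.19) and Gabpa (0.118 and 0.169). Polg2 also lost it without AMH replicate 1 (0.11) and Gabpa without AMH replicate 2 (0.101). With hybridization control scaling Polg2 (0.30, adjusted p = 0.364) and Gabpa (0.29, adjusted p = 0.507) were not called. No filter ended the calls of Twnk (0.0616), Polg2 (0.0809) and Gabpa (0.0777), median centring those of Twnk (0.0509) and Gabpa (0.0512), no intensity trend those of Polg2 (0.0546) and Gabpa (0.0766), the mean over probe sets those of Twnk (0.0604) and Gabpa (0.0548), and the dimmest probe set that of Twnk (-0.25, adjusted p = 0.409). Gabpa stood at 1.06 without AMH replicate 1 and 0.45 without AMH replicate 2.

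The cytosolic ribosome and the respiratory chain, which mitochondrial ribosomes help to build, gave larger shares of falls. Of 47 tested genes picked by symbol as cytosolic ribosomal proteins 24 fell (51.1%) and 4 rose (8.51%), with a median of -0.45. Of 86 nuclear genes picked by symbol for the respiratory chain and ATP synthase 33 fell (38.4%) and 10 rose (11.6%), with a median of -0.33. The symbols also took in assembly factors, such as Ndufaf3, which fell, and Ndufaf4, which rose, the inhibitor Atp5if1 and the pseudogene Cox6c-ps1. The mitoribosomal share of falls, 30.1%, lay between these and the 11.9% of all tested genes, and the differences between the lists were not tested. The steepest falls among these lists were those of Rpl24 (-2.69 ± 0.18) and Atp5mg (-2.63 ± 0.18), beyond any mitoribosomal gene. Rpl14 (-2.09 ± 0.14) and Atp5pd (-1.93 ± 0.14) also ranked lowest by the moderated statistic in their lists. At the other end Rpl13a (0.57 ± 0.14), Rpl37-ps2 (0.95 ± 0.26), Uqcrh (0.87 ± 0.15) and Cox7a2l (0.83 ± 0.14) rose. Rpl37-ps2, a pseudogene by its symbol, had only 71.2 and 49.9 with AMH, against 25.2 and 21.3 in control. Rpl28, also among the cytosolic rises, had 50.6 and 58 with AMH, against 26.7 and 21.4 in control (adjusted p = 0.0498). For both, the control values lie under the filter level of 27.8. The rises of Rpl13a, Rpl37-ps2, Uqcrh and Cox7a2l were all lost with hybridization control scaling (adjusted p of 0.764, 0.194, 0.24 and 0.222). Without either control array the calls of Rpl13a (0.0904 and 0.287) and Rpl37-ps2 (0.121 and 0.164) were lost, without control replicate 1 that of Cox7a2l (0.0817), and without AMH replicate 1 that of Rpl37-ps2 (0.0831). No filter ended the calls of Rpl13a (0.1005) and Rpl37-ps2 (0.0847), and no intensity trend that of Rpl13a (0.0813).

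**Figure D4:**
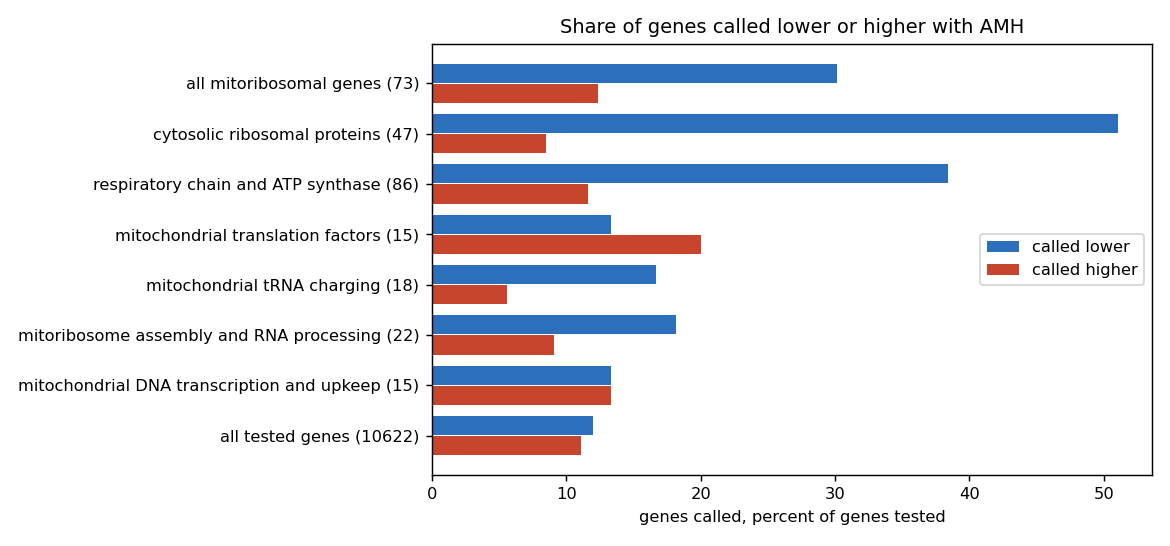
Percent of tested genes called lower and called higher with AMH (x axis) in the mitoribosomal set, the cytosolic ribosomal proteins, the respiratory chain, 4 lists of genes that serve mitochondrial gene expression, and all tested genes; the number of genes tested is in parentheses. Mitoribosomal genes were called lower in 30.1%, cytosolic ribosomal proteins in 51.1% and all genes in 11.9%.

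Promoters of the members were compared next, since genes for mitochondrial proteins often carry sites of the factors NRF1, GABPA (an ETS factor) and YY1. RefSeq promoters of the GRCr8 assembly, 250 bases before to 50 after the start, matched 59 of the 73 genes by symbol. Each motif was searched on both strands and counted once per promoter. The ETS core CCGGAAG was found in 20 of the 59 (33.9%, against 11.2% of 19005 protein-coding promoters) and the YY1 core AAGATGGCG in 8 (13.6%, against 2.29%). The palindromic NRF1 core, in capitals below in the stretch beside Mrpl32, was found in 4 (6.78%, against 1.14%), and with 1 of its middle bases left free, which includes those 4, in 9 (15.3%, against 6.09%). All of these motifs are thus more frequent than in promoters at large. The NF-Y core CCAAT was found in 26 (44.1%, against 38.4%), the TATA box TATAAA in 7 (11.9%, against 13.1%) and the ERR core TCAAGGTCA in 0 (against 0.353%).

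Promoters of falling and rising members held these motifs in differing shares, over small numbers and with no test. CCGGAAG was in 8 of 20 promoters of members that fell, 2 of 7 of those that rose and 10 of 32 of those not called. CCAAT was in 3 of 20, 5 of 7 and 18 of 32. AAGATGGCG was in 1 of 20, 2 of 7 and 5 of 32, and the NRF1 core with a free base in 4 of 20, 0 of 7 and 5 of 32. The promoters of the 4 lowest and the 4 highest called members with an entry were read over the 150 bases before the start. Of these 8, 5 held none of the motifs above. Shown is the only one with an ETS core and no other gene's start in that stretch, that of Mrpl36, a member that rose. Mrps18c, which fell, also held an ETS core there, but its neighbour Helq starts within the stretch. In Mrpl36 the ETS core begins 75 bases before the start and a YY1 core 17 bases before it on the other strand (capitals). The stretch shown lies at chr1:31795122-31795271 on the minus strand.
Mrpl36: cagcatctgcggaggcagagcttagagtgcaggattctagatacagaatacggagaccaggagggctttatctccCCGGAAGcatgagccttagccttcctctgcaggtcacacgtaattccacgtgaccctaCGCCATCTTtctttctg

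Many members start close to a neighbour that is transcribed in the other direction, so that 1 stretch of DNA precedes both genes. A total of 16 pairs of a member and a protein-coding neighbour had divergent starts at most 1000 bases apart in the RefSeq annotation, and both genes were tested in 13. The members of a pair had the same sign in 5 of the 13, and Pearson's r of their changes was 0.18 (Spearman's rho 0.19), given as a description. Most of these signs belong to genes without a call, and both genes were called in 1 pair only. The stretches between the starts are shown for the 6 pairs that lie at most 250 bases apart, have both genes tested and have a called gene. Each is written on the member's strand, 5′ to 3′ towards the member's start, with the motifs above in capitals.
Mrps18c and Helq, chr14:9122907-9122977, minus strand: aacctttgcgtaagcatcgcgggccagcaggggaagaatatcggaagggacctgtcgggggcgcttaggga
Mrps27 and Ptcd2, chr2:32474114-32474203, plus strand: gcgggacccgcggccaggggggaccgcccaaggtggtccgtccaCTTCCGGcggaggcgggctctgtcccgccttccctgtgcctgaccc
Mrpl51 and Ncapd2, chr4:159677939-159677987, plus strand: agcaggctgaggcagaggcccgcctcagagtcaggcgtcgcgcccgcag
Mrpl30 and Mitd1, chr9:47621034-47621226, plus strand: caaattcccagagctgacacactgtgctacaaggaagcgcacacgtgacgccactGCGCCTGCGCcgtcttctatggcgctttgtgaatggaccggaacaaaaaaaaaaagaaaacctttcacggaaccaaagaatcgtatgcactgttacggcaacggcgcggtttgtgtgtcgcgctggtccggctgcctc
Mrpl32 and Psma2, chr17:55260442-55260650, plus strand: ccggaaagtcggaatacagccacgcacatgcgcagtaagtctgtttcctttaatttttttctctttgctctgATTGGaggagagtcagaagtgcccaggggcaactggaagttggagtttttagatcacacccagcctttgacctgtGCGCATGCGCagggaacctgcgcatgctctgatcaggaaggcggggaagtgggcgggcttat
Mrpl47 and Ndufb5, chr2:117447362-117447604, minus strand: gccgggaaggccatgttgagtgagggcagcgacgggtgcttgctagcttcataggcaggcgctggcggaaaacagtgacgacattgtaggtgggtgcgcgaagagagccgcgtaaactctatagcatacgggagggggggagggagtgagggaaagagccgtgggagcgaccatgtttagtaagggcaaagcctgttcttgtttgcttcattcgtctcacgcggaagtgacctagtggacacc

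Across the 71 bases of the first of these stretches both genes fell, Mrps18c as given above and Helq, a DNA helicase, with 207.2 and 127.7 with AMH, against 466.1 and 397.8 in control (-1.32 ± 0.23, adjusted p = 0.00684). Across the NRF1 core shown above, Mrpl32 was not called (678.8 and 873.5 with AMH, against 789.7 and 688.3 in control, 0.06 ± 0.17). Its neighbour Psma2, a proteasome subunit, fell (613.2 and 736.8 with AMH, against 1897 and 1619 in control, -1.36 ± 0.16, adjusted p = 0.00148). Mrpl32 thus had overlapping groups and Psma2 groups far apart. Ndufb5, a subunit of respiratory complex I, rose (1461 and 2026 with AMH, against 999.2 and 945 in control, 0.81 ± 0.18, adjusted p = 0.0157), while Mrpl47 on its other side had 184.7 and 298.4 with AMH, against 379.9 and 385.4 in control. The call of Ndufb5 was lost without either control array (adjusted p = 0.0609 and 0.0751) and with hybridization control scaling (0.368). Ptcd2 fell (-1.05 ± 0.20), a call lost without control replicate 1 (0.0827), and its partner Mrps27 was not called (0.12 ± 0.19). Mrpl30 fell and Mitd1 was not called (0.31 ± 0.20), and Mrpl51 rose and Ncapd2 was not called (0.39 ± 0.21).

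**Figure D5:**
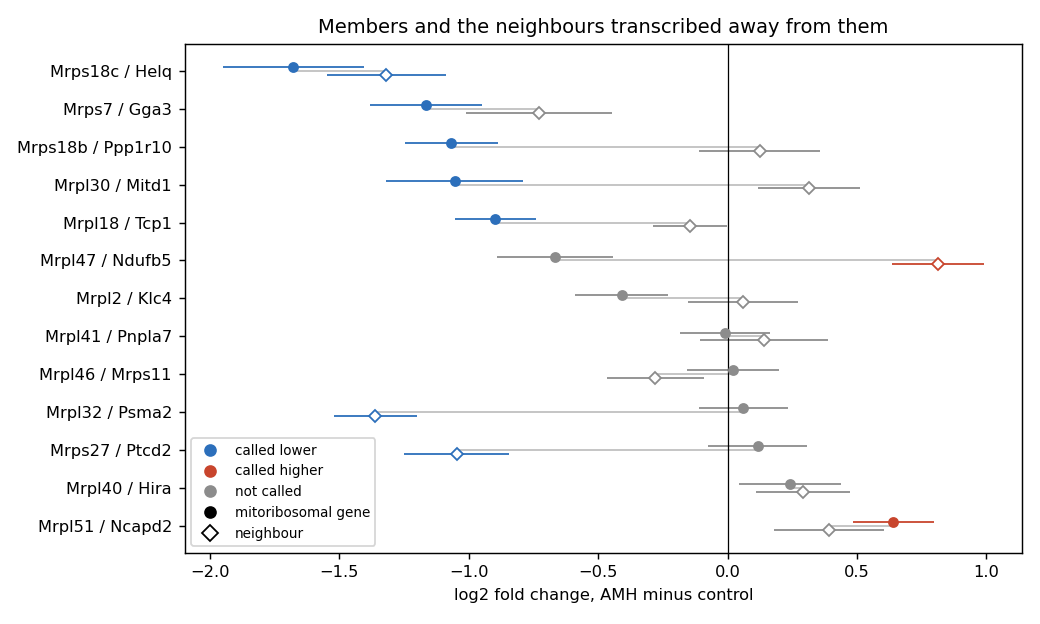
Change with AMH (x axis, log2 fold change, AMH minus control; bars, limma standard error) of 13 mitoribosomal genes (filled circles) and of the neighbours that start within 1000 bases in the other direction (open diamonds). Both genes fell in the pair of Mrps18c and Helq, whereas Psma2 fell by 1.36 beside an uncalled Mrpl32 and Ndufb5 rose by 0.81 beside an uncalled Mrpl47.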

How the data were processed

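Probe set intensities on a linear scale were used as deposited by the authors (31099 probe sets, 4 arrays). Their mean, trimmed by 2 percent at each end, was 125.03 on each array, so the deposited values had been scaled to a common target; no source used here names the summarising software. Sample titles gave group and replicate. The 57 control probe sets and the dimmest 40 percent of the rest (mean below about 27.8) were dropped, which left 18625. Log2(intensity + 16) was fitted with limma 3.58.1 in R 4.3.3 (eBayes with a trend, 2 residual and 6.33 prior degrees of freedom), with two-sided p-values adjusted by Benjamini-Hochberg at 0.05. Precision is limited by 2 arrays per group. The fit was also run on simulated data with normal errors and the same spread in both groups. The real AMH pair is the wider one, so the simulation does not show how firm the calls above are.

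Names came from probe sets with 1 annotated symbol (20832; 436 had several and 9831 none listed), and all 73 members matched a RefSeq gene by Entrez identifier. Coordinates are those of RefSeq on GRCr8. Members, lists and tests were chosen with earlier results of these data known. Named by rule were the 12 members with the lowest and the 8 with the highest change, all members called higher, the 3 brightest, those whose probe sets differ, Mrpl10, Mrpl12, Mrps12 and Mrps22, and the 2 highest and 2 lowest of each other list by moderated statistic; other genes were chosen after their values were seen. Same-numbered AMH and control arrays did not deviate together (correlation -0.00082), so no block was used. Alternatives covered scaling (9 hybridization controls among them), constant, filter, trend, probe set, gene span, block and each array left out.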

Additional observations from a re-analysis of the deposited data

How the results depend on the processing

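The number of members called lower stayed within 1.5 times of 22 in all alternatives (15 to 29), whereas the number called higher, 9 as reported, was 0 with hybridization control scaling, 5 with no filter, 3 with no intensity trend and 4 with the replicate block, and 1 to 15 with 1 array left out. The replicate numbers did not pair the arrays, and with the replicate block 22 members were called lower and 4 higher, where 10.9% of all genes were lower and 9.15% higher. The block ended the calls of Yars2, Ngrn and Lrpprc. Of all probe sets, 1614 were called higher and 2385 lower as reported. With hybridization control scaling these were 113 and 5245, higher calls were 1010 with no filter and 989 with no intensity trend, and with 1 array left out higher calls ranged from 334 to 2245 and lower calls from 1047 to 2886. The median change of the members, -0.09 as reported, was -0.56 with hybridization control scaling, -0.21 with the mean over probe sets, 0.067 with the gene span trend removed, -0.28 at the dimmest probe set and -0.22 to -0.03 with 1 array left out. The cause of these shifts was not tested.

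The sign changes below are those of genes named in the text; over all 73 members there were 4 with quantile normalization, 7 with median centring, 18 with hybridization control scaling and 8 with the gene span trend removed. Hybridization control scaling moved every member by about -0.47, which turns any change between 0 and that size. Of the named genes that changed sign, only Mrpl37 had a call as reported. With quantile normalization, sign changed for Mrps15 (-0.017) and Dap3 (-0.034). With median centring, sign changed for Mrpl52 (0.047), Mrps22 (0.0092) and Mrps24 (0.068). With hybridization control scaling, sign changed for Mrpl49 (-0.31), Mrps14 (-0.23), Mrps15 (-0.43), Mrps2 (-0.39), Mrps27 (-0.35), Ptcd3 (-0.33), Dap3 (-0.47), Mrpl17 (-0.34), Mrpl32 (-0.41), Mrpl45 (-0.34) and Mitd1 (-0.15). With 1 added before log2, sign changed for Dap3 (-0.00011). With the mean over probe sets, sign changed for Mrpl37 (-0.53), Mrpl49 (-0.33), Mrps14 (-0.048), Mrps15 (-0.17), Mrps2 (-0.38), Mrps27 (-0.052) and Mrps9 (0.046). With the gene span trend removed, sign changed for Mrpl52 (0.16), Mrps22 (0.00598) and Mrps24 (0.16). At the dimmest probe set, sign changed for Mrpl37 (-1.57), Mrpl49 (-0.81), Mrps14 (-0.34), Mrps15 (-0.37), Mrps2 (-0.83), Mrps27 (-0.22) and Mrps9 (0.36). With 1 array left out, sign changed for Mrpl52 (-0.20 to 0.10), Mrps15 (-0.25 to 0.33), Mrps2 (-0.032 to 0.19), Mrps22 (-0.21 to 0.034), Dap3 (-0.24 to 0.25), Mrpl32 (-0.12 to 0.24), Mrps24 (-0.094 to 0.036), Mrps30 (-0.67 to 0.034), Ptcd3 (-0.0074 to 0.28) and Mrpl17 (-0.0397 to 0.30). The cause of the other changes of sign was not tested. With 2 arrays per group, the size of small changes is poorly fixed. So is the size of falls to low intensity, where AMH values lie near the filter level (such as Mrps18c, Mrpl14, Ears2 and the dimmer probe sets of Mrpl10, Mrpl37 and Mrps2).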
